A study of Fukomys damarensis with 47 samples.

Results

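NRIP1, MED12 and CTBP1 encode coregulators, proteins that do not read DNA themselves but switch genes up or down together with nuclear receptors and other transcription factors. They are 3 of the 33562 genes counted by RNA-Seq in cells cultured from the bones of female Damaraland mole-rats (Fukomys damarensis). They were chosen by gene identifier, ENSFDAG00000000054 for NRIP1, ENSFDAG00000000048 for MED12 and ENSFDAG00000000049 for CTBP1. The rule used no measured value, but the choice was made with earlier results of these data known. Their levels were followed in all 47 libraries across estradiol treatment, social status and bone type.

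NRIP1, also called RIP140, binds ligand-bound nuclear receptors, the estrogen receptors among them, and represses their targets. It is itself an estrogen target in breast cancer cells, and it recruits CtBP proteins to DNA. CTBP1 is such a CtBP protein, a corepressor that brings chromatin-modifying enzymes to factors such as ZEB1 and ZEB2. MED12 belongs to the kinase module of Mediator, the complex that links transcription factors, nuclear receptors included, to RNA polymerase II. Estrogen restrains bone loss in mammals, and its receptors act in osteoblasts and their stromal precursors.

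The cultures were enriched for mesenchymal stromal cells of the bone marrow (bMSCs) and came from 16 adult females aged 1003 to 1232 days, of 8 natal colonies. There were 5 queens, each paired with an unrelated male, 7 helpers, which stayed in their natal colony, and 4 solitaires, which were housed alone. Helpers and solitaires together are the nonbreeders. Marrow came from pooled long bones (26 libraries, 16 animals) or from lumbar vertebrae (LV, 21 libraries, 14 animals), and the cells received 10 nM estradiol or vehicle for 24 hr, which gave 18 estradiol and 29 vehicle libraries. All cultures shared the same medium, with fetal bovine serum and recombinant human basic fibroblast growth factor. The LV were incubated in collagenase before the marrow was spun out and the long bones were not, so that bone type and preparation cannot be told apart.

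The libraries held 5329563 to 16327339 counts each. Markers of osteoblasts and stromal cells were present: COL1A1, a chain of type I collagen, ran from 29.7 to 2250 CPM (counts of a gene scaled to a common library total) in the long bones and from 78.1 to 1280 CPM in the LV. LAPTM5, a gene of blood cells, ran from 24.1 to 2230 CPM and from 12.4 to 497 CPM, and CTSK, the osteoclast protease cathepsin K, from 146 to 809 CPM and from 57.4 to 655 CPM. Of the markers of both lists, none was at 0 in every library of a group. Libraries of the queens MAF006 and NOF009 stood apart. The 13 blood cell markers summed to between 1240 and 4320 CPM in the 3 libraries of MAF006 and between 3170 and 3360 CPM in the 2 of NOF009, against 82.8 to 1630 CPM in the 42 libraries of the other 14 animals. The 9 osteoblast and stromal markers summed to between 326 and 2190 CPM in MAF006, 1800 and 1840 CPM in NOF009 and between 1540 and 6880 CPM in the others. In such mixed cultures, fewer cells of a type and less RNA per cell cannot be told apart. Counts of the 3 genes are not compared with each other as levels, because gene lengths were not available.

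NRIP1 was detected deeply in every library. It had 294 to 1671 counts per library and a median level of 68.8 CPM. Apart from 5 libraries it lay between 45.4 and 104 CPM, and its coefficient of variation over all libraries was 53.3%, where counting error gives 4.06% at the median count. The highest were the long bone vehicle library of MAF006 at 263 CPM and its LV estradiol library at 230 CPM, followed by the LV vehicle library of MAF003, a solitaire of the same natal colony, at 162 CPM. The long bone estradiol library of MAF006 was at 55.2 CPM, within the range of the other animals, and its blood cell markers were the highest of all libraries at 4320 CPM. The next after the MA colony were the long bone estradiol library of the helper WEF002 at 146 CPM and the LV estradiol library of the helper NOF007 at 119 CPM. The lowest were both long bone libraries of the solitaire G4F020, at 45.4 CPM with estradiol and 45.8 CPM with vehicle, and the LV vehicle library of G1F025 at 45.6 CPM.

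In the long bone vehicle libraries, NRIP1 was at 263 CPM in MAF006, 78.2 in NOF009, 72.4 in WAF014, 58.5 in LAF007 and 50.9 in DVF007 among queens. Among helpers it had a lowest value of 51.0, a median of 61.0 and a highest value of 90.4 CPM (n = 7), and among solitaires it was at 68.4 in G1F025, 63.8 in MAF003, 59.3 in WEF001 and 45.8 in G4F020. Apart from MAF006, every queen lay within the range of the helpers or within 1 CPM of it. In the LV vehicle libraries, the queens DVF007, LAF007 and WAF014 were at 104, 94.5 and 73.3 CPM, the helpers between 61.7 and 85.7 with a median of 65.5 CPM (n = 6), and the solitaires MAF003, WEF001, G4F020 and G1F025 at 162, 96.3, 68.8 and 45.6 CPM. In order of their medians, the 12 groups of status, bone type and treatment ran from 45.4 CPM in the 1 solitaire long bone library with estradiol to 97.4 CPM in the 3 queen LV libraries with estradiol. All neighbours in this order overlapped, except for that lowest library and the next, which are single libraries. Groups farther apart did not always overlap. With estradiol, the queens were at 89.1 to 230 CPM in the LV (n = 3) and at 46.9 to 87.1 CPM in the long bones (n = 4).

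**Figure D1:**
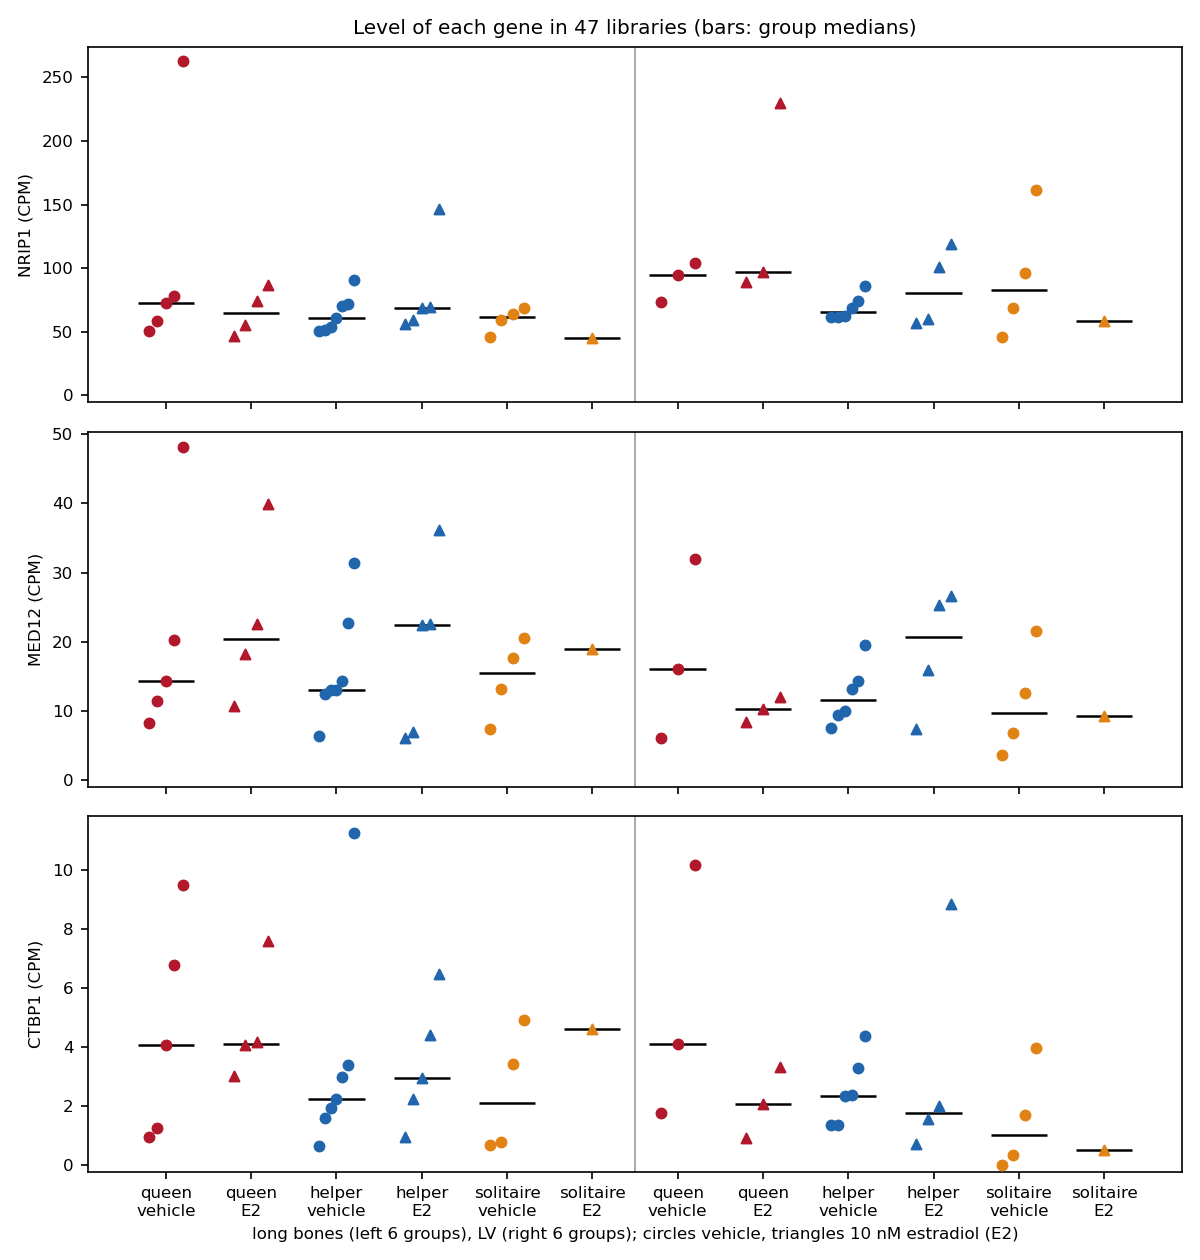
The level of NRIP1, MED12 and CTBP1 in CPM (y axis, linear scale) is plotted for each of the 47 libraries by bone type, social status and treatment (x axis), circles for vehicle and triangles for 10 nM estradiol, with a bar at each group's median. Groups next to each other by median overlap for all 3 genes, except for single solitaire libraries of NRIP1 with estradiol. Groups farther apart do not always overlap. NRIP1 has isolated high libraries up to 263 CPM where MED12 and CTBP1 are spread throughout.

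MED12 varied more from library to library. It had 22 to 521 counts per library and a level from 3.62 CPM in the LV vehicle library of the solitaire WEF001 to 48.2 CPM in the vehicle library from the long bones of the queen DVF007, a ratio of 13.3 (median 13.2 CPM). Counting error accounts for a coefficient of variation of 9.02% at its median count, and the measured one was 58.6%. The 5 highest libraries came from queens and helpers of the colonies DV, LA and WA. After DVF007 came the long bone estradiol library of the queen LAF007 at 39.9 CPM, the long bone estradiol library of the helper DVF008 at 36.2, the LV vehicle library of the queen WAF014 at 31.9 and the long bone vehicle library of DVF008 at 31.4 CPM.

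By group, MED12 in the long bone vehicle libraries was at 48.2 CPM in DVF007, 20.2 in NOF009, 14.3 in WAF014, 11.5 in MAF006 and 8.23 in LAF007 among queens. Helpers had a lowest value of 6.32, a median of 13.1 and a highest value of 31.4 CPM (n = 7), and solitaires were at 20.6, 17.7, 13.2 and 7.4 CPM. The queens overlapped the helpers and went beyond them at the upper end through DVF007. In the LV vehicle libraries, MED12 was at 31.9, 16.1 and 6.13 CPM in 3 queens, between 7.54 and 19.5 with a median of 11.6 CPM in 6 helpers, and at 21.5, 12.6, 6.88 and 3.62 CPM in 4 solitaires. The medians of the 12 groups ran from 9.27 CPM, in the 1 solitaire LV library with estradiol, to 22.5 CPM, in the 5 helper long bone libraries with estradiol, and all neighbours in this order overlapped.

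CTBP1 was counted thinly. Its median was 20 counts per library and 2.36 CPM, 10 of the 47 libraries had fewer than 10 counts, and 28 libraries (59.6%) reached 2 CPM. In the LV vehicle library of MAF003 it had 0 of 5672201 counts, which allows a level of up to 0.529 CPM (3 counts, for counting error only). Its level was highest at 11.3 CPM in the long bone vehicle library of DVF008, followed by the LV vehicle library of WAF014 at 10.2, the long bone vehicle library of DVF007 at 9.5 and the LV estradiol library of DVF008 at 8.87 CPM. The coefficient of variation was 82.4%, where counting error alone gives 22.4% at the median count.

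In the long bone vehicle libraries, CTBP1 was at 9.5 CPM in DVF007, 6.78 in WAF014, 4.08 in NOF009, 1.24 in LAF007 and 0.944 in MAF006 among queens. Among helpers it ran from 0.648 to 11.3 with a median of 2.24 CPM (n = 7), and in the solitaires it was at 4.92, 3.43, 0.779 and 0.673 CPM. The highest library of this set was thus a helper's, and every queen lay within the range of the helpers. In the LV vehicle libraries it was at 10.2, 4.11 and 1.75 CPM in queens, between 1.34 and 4.37 with a median of 2.35 CPM in 6 helpers, and at 3.95, 1.69, 0.329 and 0 CPM in solitaires. The medians of the 12 groups ran from 0.483 CPM in the 1 solitaire LV library with estradiol to 4.6 CPM in the 1 solitaire long bone library with estradiol, and all neighbours overlapped.

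The first comparison asked whether estradiol changes the coregulators in these cells. In the long bones, 10 animals had a vehicle and an estradiol library. NRIP1, the member that estrogen induces in breast cancer cells, differed little in 5 of them, with log2 differences between 0.017 and 0.11 in DVF008, G4F020, NOF009, WAF011 and WAF014. It was at 263 CPM with vehicle and 55.2 with estradiol in MAF006, and at 51.2 and 146 CPM in WEF002. These 2 animals, a queen and a helper, went in opposite directions by -2.29 and 1.46 on the log2 scale. In the others, the difference was -0.42 in NOF007 (90.4 and 68.6 CPM), -0.30 in LAF007 (58.5 and 46.9 CPM) and -0.30 in G1F022 (71.8 and 59.1 CPM). The mean difference was -0.16 ± 0.91 (SD, n = 10, exact two-sided permutation test within animals, p = 0.562). It was above 0 in 6 of 10 animals after TMM normalization, which scales libraries by their overall composition, and in 4 of 10 as plain CPM.

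MED12 went from 8.23 to 39.9 CPM in the queen LAF007 and from 6.32 to 22.5 CPM in the helper WAF011, and from 13.0 to 6.1 CPM in WEF002 and from 12.5 to 6.88 CPM in G1F022. These are values of single pairs of cultures, and the directions were split evenly. It was higher with estradiol in 5 of 10 animals, with a mean log2 difference of 0.26 ± 1.08 (SD, n = 10, exact two-sided permutation test, p = 0.473). CTBP1 went the same way in 3 of these 4 animals, from 1.24 to 7.61 CPM in LAF007, from 0.648 to 4.41 in WAF011 and from 3.4 to 0.949 in WEF002. In G1F022 it was at 2.24 CPM with either treatment. Its mean log2 difference was 0.41 ± 1.36 (SD, n = 10, exact two-sided permutation test, p = 0.367), and it was higher in 5 of 10 animals, or 7 of 10 as plain CPM.

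In the LV, 7 animals had both treatments. NRIP1 was at 61.7 CPM with vehicle and 119 with estradiol in NOF007, and at 96.3 and 58.6 CPM in WEF001, and differed by between -0.255 and 0.262 on the log2 scale in the other 5 animals. The mean log2 difference was 0.0079 ± 0.53 (SD, n = 7, exact two-sided permutation test, p = 0.922). MED12 was lower with estradiol in both queens, from 31.9 to 10.3 CPM in WAF014 and from 16.1 to 12.1 CPM in DVF007, and higher in 4 of the 5 nonbreeders, most in DVF008 (9.43 to 25.3 CPM) and WEF001 (3.62 to 9.27 CPM). The exception was the helper WAF011, from 19.5 to 7.4 CPM. Its mean was 0.030 ± 1.19 (SD, n = 7, exact two-sided permutation test, p = 0.984). CTBP1 was also lower in both queens, from 10.2 to 3.32 CPM in WAF014 and from 4.11 to 2.07 CPM in DVF007, and higher in 3 of 5 nonbreeders, with a mean over all animals of -0.47 ± 1.34 (SD, n = 7, exact two-sided permutation test, p = 0.375). With 2 queens, whether queens and nonbreeders differ in the LV was not tested.

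**Figure D2:**
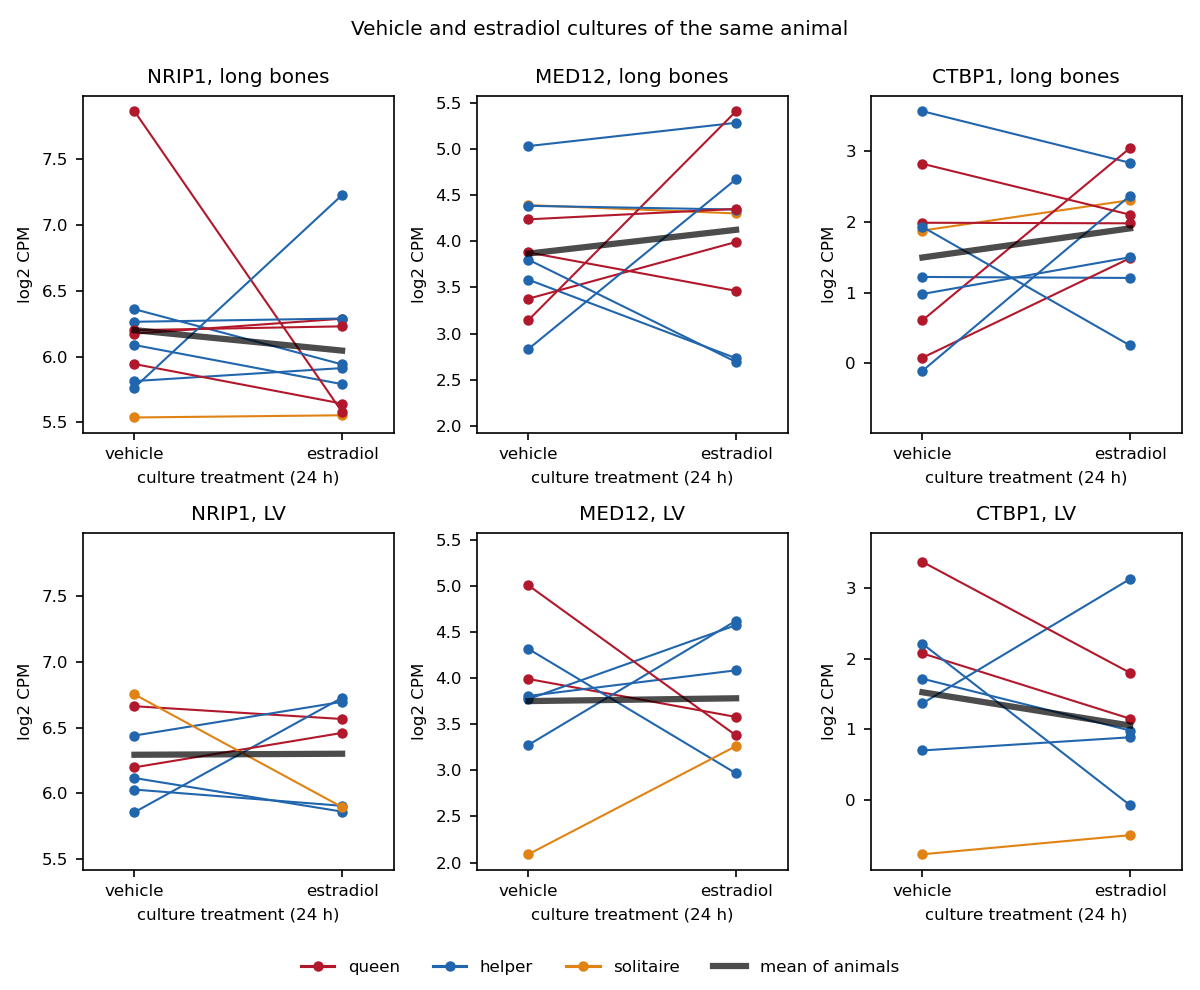
Each line joins the vehicle and the estradiol culture of the same animal (x axis), coloured by social status, with the level of NRIP1, MED12 or CTBP1 in log2 CPM (TMM, prior count 2) on the y axis, long bones above (10 animals) and LV below (7 animals), and the thick line joining the means of the animals. Lines cross in every panel, and the steepest NRIP1 lines in the long bones are MAF006 downward and WEF002 upward.

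Fitted over all 11047 genes that passed the filter on low counts, with animal as a block, none of the 3 genes passed an FDR of 10% for estradiol. Neither did any other gene in the long bones or the LV (0% of genes called in each). At an unadjusted p under 0.05, edgeR had 129 genes for the long bones and 55 for the LV, where 552 would pass by chance, and none of the 3 was among them. In the long bones, the log2 fold change was -0.14 for NRIP1 (standard error 0.26, 95% confidence interval -0.69 to 0.41), 0.25 for MED12 (0.31, -0.43 to 0.92) and 0.40 for CTBP1 (0.42, -0.50 to 1.31), each with an edgeR adjusted p of 0.9997. The intervals leave room for changes of MED12 or CTBP1 of either direction. In the LV the log2 fold change was 0.0096 for NRIP1 (standard error 0.18, -0.40 to 0.42), 0.027 for MED12 (0.41, -0.90 to 0.95) and -0.62 for CTBP1 (0.52, -1.78 to 0.54). Without MAF006 and NOF009, NRIP1 in the long bones was at 0.058. Single animals also moved the other log2 fold changes there, with MED12 at 0.034 without LAF007 and CTBP1 at 0.143 without WAF011. The dispersion of CTBP1 in the long bones, which measures its spread between cultures of an animal, was above that of 94.7% of the tested genes, and that of MED12 above 86.5%. With DESeq2's Wald test 5 genes passed for the long bones and 6 for the LV, with none of the 3 among them.

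The effect of estradiol in the long bones was next compared between queens and nonbreeders. NRIP1 differed with estradiol by -0.61 ± 1.13 in queens (SD, n = 4) and by 0.15 ± 0.68 in nonbreeders (SD, n = 6) on the log2 scale. The difference between these effects was -0.71 (standard error 0.51, edgeR adjusted p = 0.945). It was -0.19 without MAF006 and -0.27 without MAF006 and NOF009. MED12 differed by 0.64 ± 1.16 in queens and 0.00054 ± 1.04 in nonbreeders, a difference in the fit of 0.63 (standard error 0.64), and CTBP1 by 0.78 ± 1.42 and 0.17 ± 1.40, a difference of 0.58 (standard error 0.88). Without LAF007, the difference was 0.0999 for MED12 and -0.065 for CTBP1. With all animals, the 95% confidence intervals of these differences were -1.81 to 0.39 for NRIP1, -0.75 to 2.01 for MED12 and -1.33 to 2.50 for CTBP1. Of all genes 0% were called. Between LV and long bones, the effect of estradiol differed by 0.16 for NRIP1 (standard error 0.35), -0.21 for MED12 (0.54) and -1.01 for CTBP1 (0.70, 95% confidence interval -2.49 to 0.46), again with 0% of genes called. For CTBP1 it was -1.61 without DVF008 (edgeR adjusted p = 0.991) and -0.41 without WAF011. At an unadjusted edgeR p under 0.05, the interactions had 27 and 60 genes, the 3 genes not among them, and DESeq2 called 0 for each.

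Queens were then compared with nonbreeders, after adding the libraries of each animal within a bone type. In the long bones, CTBP1 had the largest difference of the 3. Its level was 2.17 ± 0.91 log2 CPM in queens (SD, n = 5) and 1.36 ± 1.01 in nonbreeders (SD, n = 11), and the groups overlapped (exact two-sided permutation test, p = 0.146). Within the 5 colonies with a queen and a nonbreeding sister, the queen was higher in 5 of 5. With the counts of an animal's libraries added, CTBP1 was at 9.5 CPM in the queen and 9.32 in the sister in colony DV. It was at 4.22 and 1.58 in LA, at 1.88 and 0.779 in MA, at 4.13 and 2.42 in NO, and at 5.39 and 2.7 CPM in WA. The mean log2 difference of 0.80 ± 0.43 (SD, n = 5) had p = 0.0625 in the exact two-sided permutation test within pairs, the smallest that 5 pairs allow. With vehicle libraries alone, the queen was higher in 3 of 5 pairs (0.72 ± 1.34, exact two-sided permutation test, p = 0.438), and in LA the queen's vehicle library was at 1.24 against 1.58 CPM in the sister. The order in LA thus rests on the queen's estradiol library at 7.61 CPM, and the sister there had no estradiol library. In MA, with vehicle alone, the queen was at 0.944 and the sister at 0.779 CPM, a log2 difference of 0.077. Over all libraries the MA difference was 0.95, with the queen's estradiol library at 3.0 CPM added and none from the sister. In DV, with vehicle alone, the queen was at 9.5 and the sister at 11.3 CPM, and the order over all libraries rests on the sister's estradiol library at 6.49 CPM, since the queen DVF007 had none from the long bones.

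In the fit with natal colony as a block, the log2 fold change of CTBP1 in the long bones was 0.82 (standard error 0.33, 95% confidence interval 0.077 to 1.56), 1.76-fold higher in queens. The unadjusted p was 0.0335 and the edgeR adjusted p 0.507, so it did not pass an FDR of 10%. No gene did (0% called), while 960 genes had an unadjusted p under 0.05 where 552 would by chance. The adjusted p lay between 0.282 and 1 over the alternatives, among which the vehicle libraries alone gave an unadjusted p of 0.226 and the fit without natal colony 0.174. DESeq2's Wald test called 391 genes and limma's voom 981, and CTBP1 was in neither set. Of the 12 tested blood cell markers 11 were higher in queens, with a median log2 fold change of 1.52, 7 at an unadjusted p under 0.05 and 0 past the FDR. Their sum had a median of 659 CPM in the 9 queen libraries and 400 CPM in the 17 nonbreeder libraries. The queen libraries include those of MAF006 and NOF009, which stood apart in these markers. All 9 osteoblast and stromal markers were lower in queens in this fit (median -0.386, 0 at an unadjusted p under 0.05). The part of either list in the values of CTBP1 was not tested. Without MAF006 and NOF009, the log2 fold change of CTBP1 was 0.76 with an unadjusted p of 0.125.

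NRIP1 in the long bones was at 6.25 ± 0.60 log2 CPM in queens (SD, n = 5) and 6.02 ± 0.30 in nonbreeders (SD, n = 11, exact two-sided permutation test, p = 0.337). Its fitted log2 fold change was 0.24 (standard error 0.21, edgeR adjusted p = 0.760). This difference rested on the MA colony, with 168 CPM in the queen MAF006 and 63.8 CPM in the solitaire MAF003, a log2 difference of 1.19. In the other 4 colonies queen and sister differed by -0.038 to 0.097. Without MAF006 and NOF009 the log2 fold change was -0.017. MED12 was at 4.39 ± 0.82 in queens and 3.9 ± 0.60 in nonbreeders (SD, n = 5 and 11, exact two-sided permutation test, p = 0.208), higher in the queen in 2 of 5 pairs, and its fitted log2 fold change was 0.18 (standard error 0.23, edgeR adjusted p = 0.832) and 0.037 without LAF007. With vehicle libraries alone the queen was also higher in 2 of 5 pairs, but not in the same ones. The log2 difference went from 0.742 over all libraries to -0.665 in LA, and from -0.348 to 1.06 in WA.

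In the LV, NRIP1 was at 6.83 ± 0.70 log2 CPM in queens (SD, n = 4) and 6.24 ± 0.51 in nonbreeders (SD, n = 10, exact two-sided permutation test, p = 0.12). MAF006 enters here through its estradiol library alone. In the vehicle libraries, which do not hold it, NRIP1 was at 6.44 ± 0.26 in queens (SD, n = 3) and 6.23 ± 0.52 in nonbreeders (SD, n = 10, exact two-sided permutation test, p = 0.51). Over all libraries, the queen was higher in 3 of 4 pairs, at 94.5 against 74.0 CPM in LA, at 230 against 162 CPM in MA and by 0.68 on the log2 scale in DV, and was lower in WA at 80.4 against 93.8 CPM. The MA pair sets an estradiol library of the queen against a vehicle library of the solitaire, and with vehicle libraries alone the queen was higher in 2 of 3 pairs. The fitted log2 fold change was 0.31 (standard error 0.16, 95% confidence interval -0.056 to 0.67, edgeR adjusted p = 0.999), and 0.26 without MAF006. Of the blood cell markers, 11 of 12 were higher in queens in the LV (median log2 fold change 1.3, 5 at an unadjusted p under 0.05, 0 past the FDR). Their sum, however, had a median of 294 CPM in the 6 queen libraries and 288 CPM in the 15 nonbreeder libraries. It was highest in the estradiol library of MAF006, at 1240 CPM. Of the 9 osteoblast and stromal markers 6 were lower (median -0.245). The part of either list was not tested. For MED12 the log2 fold change was -0.019 (standard error 0.27), with the queen higher in 2 of 4 pairs. For CTBP1 it was 0.37 (standard error 0.69), and the interval from -1.18 to 1.93 is the widest of the 3, with sister differences from -0.935 in DV to 2.91 in MA, where the sister had 0 counts and the difference depends on the prior count. No gene passed an FDR of 10% (0% called), 379 had an unadjusted edgeR p under 0.05, and DESeq2 called 105. The smallest p that 4 pairs allow is 0.125.

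**Figure D3:**
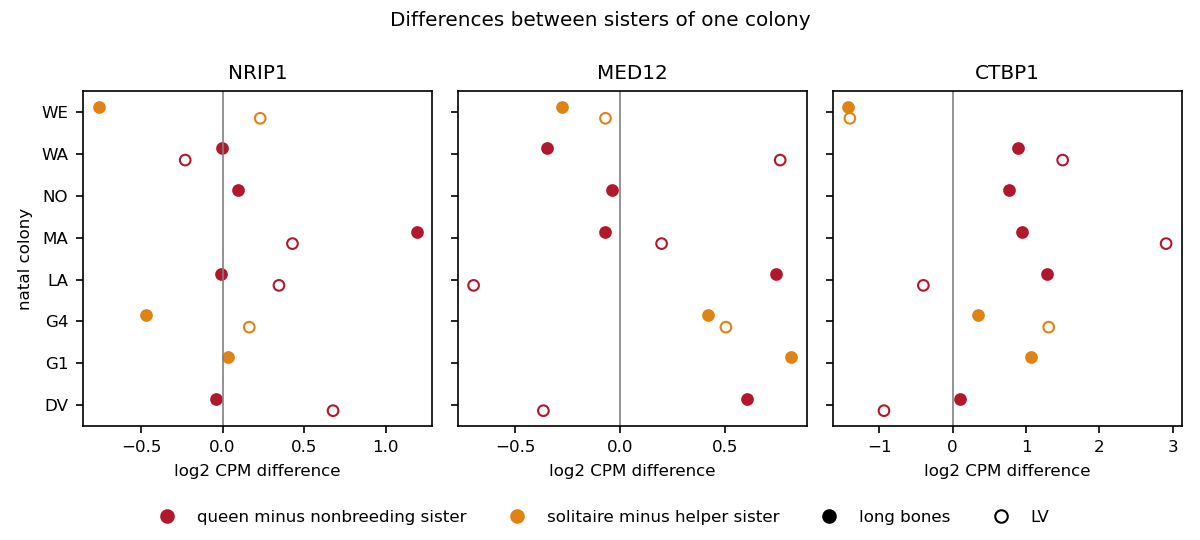
Each point is the difference in log2 CPM (x axis) between 2 animals of a natal colony (y axis), averaged over the libraries of an animal, for NRIP1, MED12 and CTBP1, with queen minus nonbreeding sister in red, solitaire minus helper sister in orange, long bones filled and LV open. For CTBP1 in the long bones the 5 red filled points lie between 0.099 and 1.28, while for NRIP1 only MA is far from 0 among them, at 1.19.

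Solitaires were compared with helpers, the contrast between nonbreeders that live alone and in a group. NRIP1 in the long bones had a log2 fold change of -0.57 in the fit with natal colony as a block (standard error 0.18, 95% confidence interval -0.97 to -0.16), 0.676 times the helper level. The unadjusted p was 0.0111 and the edgeR adjusted p 0.522, so it did not pass an FDR of 10%, which 1 gene did (0.00905% of genes). Without regard to colony, solitaires were at 5.89 ± 0.23 log2 CPM (SD, n = 4) and helpers at 6.095 ± 0.32 (SD, n = 7), with overlapping groups (exact two-sided permutation test, p = 0.291). Among the 3 colonies with both, NRIP1 was at 68.4 CPM in the solitaire and 65.9 in the helper in G1, at 45.6 and 61.0 in G4, and at 59.3 in WEF001 and 103 CPM in its sister WEF002. The value of 103 comes from the added counts of the vehicle library of WEF002, at 51.2 CPM, and its estradiol library, at 146 CPM. With vehicle libraries alone this pair differed by 0.145, with the solitaire higher, and the fitted fold change was -0.51 (unadjusted p = 0.122). In the edgeR fit, the log2 fold change was -0.23 without natal colony, -0.40 with nonbreeders only and -0.38 without MAF006 and NOF009. The unadjusted edgeR p-values of these fits were 0.398, 0.115 and 0.0629. In this comparison, 7 of the 9 osteoblast and stromal markers were higher in solitaires (median log2 fold change 0.668, 0 at an unadjusted p under 0.05), and all 5 dividing cell markers were lower (median -0.458, 1 at an unadjusted p under 0.05). Of the 12 tested blood cell markers 7 were lower (median -0.336). No marker of these lists passed the FDR, and their part in the difference of NRIP1 was not tested.

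MED12 and CTBP1 in the long bones differed between solitaires and helpers by 0.32 (standard error 0.25, edgeR adjusted p = 0.678) and 0.037 (standard error 0.45, edgeR adjusted p = 0.981). For MED12 the solitaire was higher in G1 (17.7 and 9.86 CPM) and G4 (19.8 and 14.3 CPM) and lower in the pair WEF001 and WEF002 (7.4 and 9.22 CPM). CTBP1 had the same order, with 4.92 and 2.24 CPM in G1, 3.97 and 2.97 in G4 and 0.673 and 2.07 CPM in WEF001 and WEF002. In the LV the log2 fold changes were 0.099 for NRIP1 (standard error 0.20), 0.096 for MED12 (0.34) and -0.38 for CTBP1 (0.97, 95% confidence interval -2.61 to 1.85), each with an edgeR adjusted p of 0.998. Of all genes 0% were called there, 308 had an unadjusted edgeR p under 0.05, and DESeq2 called 6. The 2 sister pairs of the LV, G4F020 with G4F019 and WEF001 with WEF002, cannot give a permutation p under 0.05, and none is given. For G1 and G4, the study gives different fathers.

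Bone type was compared within animals. In the vehicle libraries of the 13 animals with both bone types, NRIP1 was higher in the LV in 10. It went from 63.8 CPM in the long bones to 162 in the LV in MAF003, from 50.9 to 104 in DVF007, from 59.3 to 96.3 in WEF001, from 58.5 to 94.5 in LAF007 and from 45.8 to 68.8 CPM in G4F020. The 5 animals are 3 solitaires and 2 queens. It was lower in the LV in NOF007 (90.4 and 61.7 CPM) and G1F025 (68.4 and 45.6 CPM), and in WAF014 the log2 difference was -0.0032. The mean log2 difference was 0.34 ± 0.53 (SD, n = 13, exact two-sided permutation test within animals, p = 0.0352). In the fit, NRIP1 was 1.26-fold higher in the LV (log2 fold change 0.33, standard error 0.14, 95% confidence interval 0.031 to 0.63). Its unadjusted p of 0.0327 gave an edgeR adjusted p of 0.25, which did not pass an FDR of 10%, while 6.83% of all genes did, 308 higher and 447 lower in the LV. Without MAF003 the fold change was 0.24 (unadjusted p = 0.0823). Neither MAF006 nor NOF009 had vehicle libraries of both bone types, so this comparison does not hold them.

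In the 5 animals with estradiol libraries of both bone types, NRIP1 was higher in the LV in 4, by 0.72 on the log2 scale on average (exact two-sided permutation test, p = 0.125, where the smallest possible is 0.0625). The values in the long bones and the LV were 55.2 and 230 CPM in MAF006, 68.6 and 119 in NOF007, 69.3 and 101 in WAF011, 74.2 and 89.1 in WAF014, and 56.1 and 60.1 CPM in DVF008. As plain CPM, all 5 were thus higher. NOF007, lower in the LV with vehicle, was higher there with estradiol.

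MED12 went the other way. It was lower in the LV in 10 of 13 animals, from 48.2 to 16.1 CPM in DVF007, from 31.4 to 9.43 in DVF008, from 7.4 to 3.62 in WEF001 and from 13.2 to 6.88 CPM in MAF003. It was higher in both animals of colony WA, from 6.32 to 19.5 CPM in WAF011 and from 14.3 to 31.9 CPM in WAF014, and about level in G4F020 (20.6 and 21.5 CPM). The mean log2 difference was -0.42 ± 0.93 (SD, n = 13, exact two-sided permutation test, p = 0.133) and the fitted fold change 0.735 (log2 -0.44, standard error 0.24, edgeR adjusted p = 0.380). Without WAF011 the log2 fold change was -0.60 and passed an FDR of 10% (edgeR adjusted p = 0.0973), the only one of the alternatives run under which any of the 3 genes did. In the estradiol libraries MED12 was lower in the LV in 4 of 5 animals (exact two-sided permutation test, p = 0.188). CTBP1 was higher in the LV in 6 animals and lower in 7, with a mean of -0.42 ± 1.31 (SD, n = 13, exact two-sided permutation test, p = 0.268) and its fitted log2 fold change was -0.39 (standard error 0.38, edgeR adjusted p = 0.625).

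The summed blood cell markers were lower in the LV in 10 of these 13 animals (median log2 difference -0.50, range -1.99 to 0.19), and the osteoblast and stromal markers had a median difference of -0.067. Their part in the differences of NRIP1 and MED12 was not tested.

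**Figure D4:**
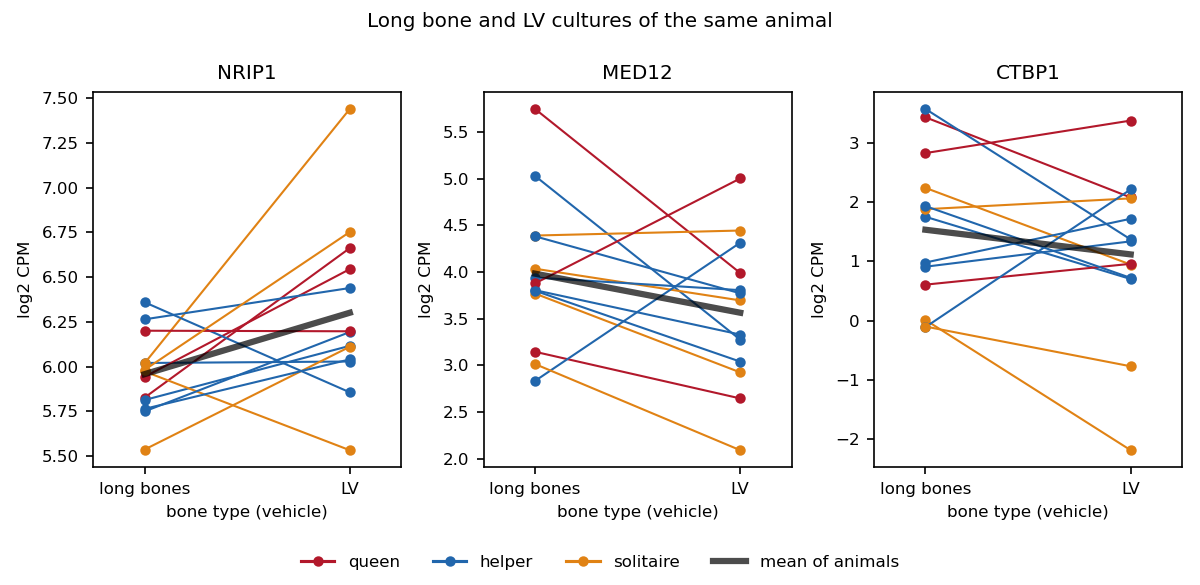
Each line joins the long bone and the LV vehicle culture of the same animal (x axis, 13 animals), coloured by social status, with the level of NRIP1, MED12 or CTBP1 in log2 CPM (TMM, prior count 2) on the y axis and the thick line joining the means. NRIP1 is higher in the LV in 10 of 13 animals, MED12 lower in 10 of 13, and CTBP1 is split 6 to 7.

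MED12 and CTBP1 followed each other, a relation that was not compared with those of other genes. Over the long bone profiles of the 16 animals, which come from 8 colonies and so are not fully independent, Pearson's r of their log2 CPM was 0.782 (permutation test, p = 0.00036, adjusted p = 0.00324 over 9 relations) and Spearman's rho 0.70 (permutation test, p = 0.00306, adjusted p = 0.0275). Without the 2 animals farthest from the median of MED12, r was 0.595. NRIP1 had r = -0.388 with MED12 (adjusted permutation p = 0.17) and r = -0.292 with CTBP1 (adjusted permutation p = 0.35). The relation of MED12 and CTBP1 was also looked at in the changes within animals, a choice made after the levels were seen, among 15 relations. Over the 10 estradiol differences in the long bones, r was 0.895 (permutation test, p = 0.0013, adjusted p = 0.0195) and rho 0.758 (permutation test, p = 0.0146, adjusted p = 0.11), with r = 0.698 without the 2 farthest animals. Over the 13 differences between LV and long bones, r was 0.763 (permutation test, p = 0.00318, adjusted p = 0.0238) and rho 0.671 (permutation test, p = 0.0144, adjusted p = 0.11), with r = 0.549 without the 2 farthest.

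By count, MED12 and CTBP1 changed in the same direction with estradiol in 6 of 10 animals (long bones) and 6 of 7 animals (LV), and between bone types in 10 of 13 animals with vehicle and 3 of 5 with estradiol. Where MED12 differed by more than 1 on the log2 scale, CTBP1 went the same way in 3 of 3, 4 of 4, 4 of 4 and 1 of 1 animals. These sets share animals and libraries, with WAF011 in each of them, so their counts are not independent. Both had positive correlations with the number of genes that had a count in the long bone vehicle libraries, r = 0.441 for MED12 and 0.399 for CTBP1 (adjusted permutation p = 0.288 and 0.307), and the part of library complexity in their relation was not tested.

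**Figure D5:**
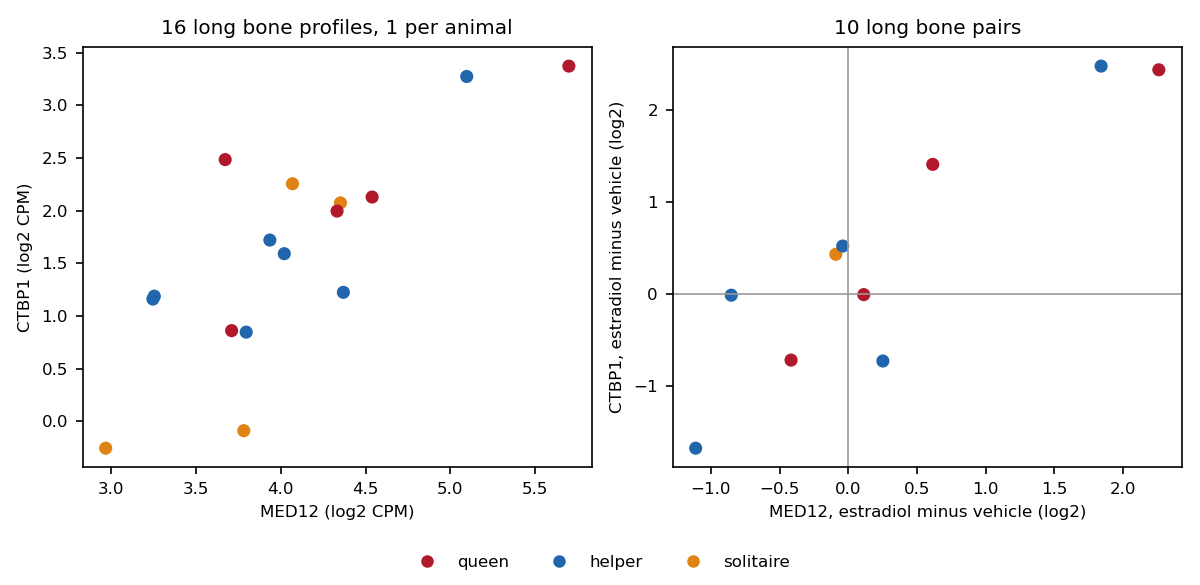
CTBP1 (y axis) is plotted against MED12 (x axis), left as log2 CPM of the long bone profiles of 16 animals and right as the log2 difference between estradiol and vehicle in 10 animals, coloured by social status. Both clouds rise to the right (r = 0.782 and 0.895), and at the upper right of the differences are LAF007, a queen, and WAF011, a helper.

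NRIP1 was set against the cell type markers over the same 16 profiles. Its r with the summed osteoblast and stromal markers was -0.742 (permutation test, p = 0.0105, adjusted p = 0.0473), with rho -0.479 (permutation test, p = 0.0622, adjusted p = 0.112), and r fell to -0.289 without the 2 animals farthest from the marker median, so that the relation rests on them. With the blood cell markers r was 0.552 (adjusted permutation p = 0.0828), and 0.181 without the 2 farthest. MED12 had r = 0.551 with the osteoblast and stromal markers (adjusted permutation p = 0.0507) and CTBP1 r = 0.468 (adjusted permutation p = 0.127).

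The genes with the most similar pattern were found by Pearson's r over the 47 libraries, with the mean of each bone type subtracted, among 1117 other tested genes with a symbol. As a description, NRIP1 was closest to PBRM1, a subunit of a SWI/SNF chromatin remodelling complex (r = 0.856), then to STXBP5 (0.834) and WWP1, a ubiquitin ligase (0.770). PBRM1 was also the closest of all 11046 other tested genes. MED12 was closest to PI4KA, a phosphatidylinositol kinase (0.9395), NF2, which encodes merlin (0.9335), and ARHGEF1 (0.9325). Among all 11046 other tested genes, with or without a symbol, these ranked only 5, 21 and 23. CTBP1 was closest to NSUN2, an RNA methyltransferase (0.8805), RRP7A (0.870) and PMPCA, a subunit of the mitochondrial processing peptidase (0.870). Their ranks among all other tested genes were 7, 17 and 18. Over all genes the median r was -0.022 for NRIP1, -0.0092 for MED12 and 0.025 for CTBP1. The libraries share animals, colonies and depth, so these values are not independent evidence.

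Other genes of the same machinery were read from 5 lists with 34 tested genes. In edgeR's test, none of them was called for estradiol, queens, solitaires or the interactions, and at an unadjusted p under 0.05 there were 0 for estradiol in either bone type, 1 for queens in the long bones, 3 for solitaires in the long bones and 1 for solitaires in the LV. Of all 11047 genes, 960, 967 and 308 did so in these comparisons, and nothing about the list is read from its counts. The 7 genes that estradiol regulates in breast cells had a median log2 fold change of -0.0090 with estradiol for the long bones and 0.037 for the LV, against medians of 0.0043 and -0.0029 for all genes. Among them, MYC was at -0.08 and 0.01 and IGFBP4 at -0.20 and 0.10. The other Mediator subunits on the list, MED28 and MED29, were at 0.14 and -0.17 with estradiol in the long bones. For queens in the long bones, TCF7L1, a transcription factor of Wnt signalling that CtBP can act with, was at -0.65 (standard error 0.23, edgeR adjusted p = 0.394) and ZEB1 and ZEB2 at -0.16 and 0.22. Of the chromatin genes, PBRM1, BRMS1, BRMS1L and MTA3 were the 4 with the highest mean level.

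Between bone types, 6 of the 34 passed an FDR of 10% in edgeR's test, 17.6% against 6.83% of all genes, with a median log2 fold change of -0.13 against -0.037. ZEB1, a repressor that recruits CTBP1, was higher in the LV (log2 fold change 0.67, standard error 0.13, edgeR adjusted p = 0.0059), as were FHL2, a coactivator of the androgen receptor (0.42, standard error 0.10, edgeR adjusted p = 0.018), and TLE4, a Groucho corepressor (0.64, standard error 0.15, edgeR adjusted p = 0.019), the last named after its values were seen. PPARG, the nuclear receptor of fat cell formation, was lower in the LV (-1.02, standard error 0.14, edgeR adjusted p = 0.00032), as were KRT18 (-1.07, standard error 0.19, edgeR adjusted p = 0.0022) and TCF7L1 (-0.56, standard error 0.16, edgeR adjusted p = 0.058). MED28 and MED29 were at -0.16 and 0.09, and ZEB2 at -0.26 (edgeR adjusted p = 0.131). The called genes thus include partners of the 3 members, while NRIP1, MED12 and CTBP1 themselves did not pass the threshold.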

How the data were processed

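RNA-Seq was read from the table of counts per gene that the authors deposited, without normalization. Per their methods and processing notes, 100-bp single-end reads of low-input polyA libraries were trimmed with cutadapt 2.3, aligned to the assembly DMR_v1.0 with STAR, and uniquely mapped reads were counted on Ensembl genes with HTSeq. The strand setting is not given in the sources used here, so counts of overlapping or antisense genes and of near-identical copies are uncertain.

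Status, bone type and treatment came from the labels, and natal colony from the prefix of the animal's name, where animals of a colony are called sisters. In the study, natal colony also stands for the date of sacrifice. Days in culture were not modelled. Symbols, taken from a gene table of the study, were paired with 1148 identifiers, 1118 of them among the genes tested. Tests were run on the 11047 genes that reached 2 CPM in 25% or more of the 47 libraries (25892 had a count). Two-sided tests came from edgeR 4.0.16 in R 4.3.3 (quasi-likelihood, TMM) with Benjamini-Hochberg adjustment, called at an FDR of 10%. Animal was the block for estradiol and bone type. For status, the libraries of each animal were added within a bone type, with natal colony as the block and queens, helpers and solitaires in the same fit. Levels per library are log2 CPM (TMM, prior count 2), tested with exact permutations over animals in Python 3.11.15 (scipy 1.17.1, numpy 2.4.6), correlations with 100000 resamples, and figures drawn with matplotlib 3.10.9. The scripts were tested on simulated data. DESeq2 1.42.0, limma 3.58.1 (voom, all 47 libraries in 1 model), other normalizations, filters and prior counts, subsets of libraries and leaving out each animal were alternatives. Leaving out the queens MAF006 and NOF009 was added after seeing the data.

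The 3 genes, the lists and the tests were chosen with earlier results of these data known. Genes were named by rule: the members, the Mediator, nuclear receptor, CtBP partner and estrogen-responsive lists, the 4 chromatin genes with the highest mean, 3 markers and the 3 most similar genes. Samples are paired because the cultures come from the same animal: after removing group means, the correlation across genes between its vehicle and estradiol libraries had a median of 0.606 (long bones) and 0.639 (LV), and that between bone types 0.599, where pairs of different animals had -0.072, -0.124 and -0.043. The lowest pairs of the same animal were at 0.0427, -0.0864 and -0.119, so some pairs were little alike. No library was a copy of another (86 pairs of the same group, chi-squared per degree of freedom at least 16.9). Depth limits CTBP1 most.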

Additional observations from a re-analysis of the deposited data

Results flagged for a closer look

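Of 33 groups and sets of pairs of 4 to 10 samples, 3 had a sample far from the others by Dixon's test at the 95% level, where chance gives about 1 in 20 (1.65 of 33). All 3 concern NRIP1 in the long bones. In the vehicle libraries of queens, MAF006 was at 263 CPM (7.86 log2 CPM after TMM), and the nearest queen on that scale, WAF014, at 72.4 CPM (6.20). In the vehicle libraries of solitaires, G4F020 was the lowest at 45.8 CPM (5.54), and the other 3 solitaires lay between 5.97 and 6.02. Among the differences between estradiol and vehicle, MAF006 was the lowest at -2.29, and the nearest animal, NOF007, was at -0.42. The first and the last of these share the same library.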

How the results depend on the processing

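Over the alternatives, 490 values of the 3 genes kept their direction and their side of the FDR of 10%, 46 changed sign, all of results that passed no threshold, and 1 came to pass it. The 48 values of the permutation tests kept both. CPM of CTBP1 rests on a median of 20 counts, which limits the precision of its values. The causes of the changes were not tested.

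Without the replicate block (animal or natal colony), the log2 fold change was -0.060 for MED12 with estradiol in the LV, and for solitaires -0.22 for MED12 and -0.41 for CTBP1 in the long bones and -0.17 for MED12 in the LV. Without it, 1 gene passed for queens in the long bones, 0 for solitaires in the long bones and 251 between bone types. Its absence changed the call of no member.

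With voom, MED12 was at -0.0087 with estradiol in the LV and NRIP1 at -0.043 for solitaires in the LV. With vehicle libraries only, MED12 was at 0.26 for queens in the LV, and for solitaires CTBP1 was at -0.054 (long bones) and 0.22 (LV) and MED12 at -0.11 in the LV. With nonbreeders only, CTBP1 for solitaires in the LV was at 0.16. Without MAF006 and NOF009, NRIP1 was at 0.058 with estradiol and -0.017 for queens in the long bones, CTBP1 at 0.12 for solitaires in the LV, and the difference in the estradiol effect of NRIP1 between bone types at -0.064.

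Leaving out each animal in turn gave, with estradiol, -0.33 to 0.072 for NRIP1, 0.034 to 0.385 for MED12 and 0.143 to 0.595 for CTBP1 in the long bones, and -0.14 to 0.14 for NRIP1 and -0.21 to 0.31 for MED12 in the LV. For queens in the LV it gave -0.31 to 0.20 for MED12 and -0.24 to 1.00 for CTBP1. For solitaires it gave -0.40 to 0.49 for CTBP1 in the long bones, and -0.16 to 0.23 for MED12 and -2.17 to 0.40 for CTBP1 in the LV. Between bone types MED12 ran from -0.60 to -0.33. The estradiol effect differed by -0.065 to 1.2 for CTBP1 between queens and nonbreeders (0.0999 to 1.01 for MED12), and by -0.034 to 0.33 for NRIP1, -0.43 to 0.22 for MED12 and -1.61 to -0.41 for CTBP1 between bone types.

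Counts of genes at an FDR of 10% were, for estradiol in the long bones, 7 with no filter, 5 with DESeq2 and 2 with voom, and in the LV 0, 6 and 3. For queens in the long bones they were 1015 with no filter, 65 with filterByExpr, 391 with DESeq2, 981 with voom and 76 with vehicle libraries only, and in the LV 378, 0, 105, 61 and 0. For solitaires in the long bones they were 9 with no filter, 139 with DESeq2, 118 with voom, and 0 with vehicle libraries only, with nonbreeders only or without MAF006 and NOF009, and in the LV 9, 6, 17 and 0. Between bone types they were 1019 with no filter, 934 with filterByExpr, 1070 with DESeq2 and 57 with estradiol libraries only. Without each animal in turn, the count was 0 to 271 for queens in the long bones (271 without DVF007 or DVF008), 0 to 16 in the LV, 0 to 8 and 0 to 9 for solitaires (16, 8 and 9 without WEF001 or WEF002), and 563 (without DVF007) to 1385 (without WAF011) between bone types.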
